A study of Drosophila melanogaster with 3 samples.

Results

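The 237 regions described here are peaks of the fusion protein CG34224-eGFP whose summits lay away from annotated promoters, outside all genes or inside exons. They come from the authors' conservative list, which held 4393 peaks on the main chromosome arms. The summit, the base of highest signal within a peak, had to lie more than 500 bp from every annotated transcription start site, those of transposable elements left out. It also had to fall outside every gene, which gave 155 distal intergenic peaks, or in an annotated exon, which gave 82 distal exonic peaks. The exonic summits divided into 30 in 3′ untranslated regions (3′ UTRs), 20 in coding sequence, 18 in 5′ UTRs and 14 in exons of non-coding genes. For comparison, 3779 peaks had their summit within 500 bp of a start site and are called promoter peaks, and 377 were distal peaks in introns. Among the listed peaks, which had passed the authors' threshold, the choice used the position of the summit and not the strength of the signal.

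ChIP-seq, the sequencing of DNA precipitated with a chromatin protein, was carried out on whole Drosophila melanogaster embryos aged 0 to 24 hours. The embryos came from a transgenic strain that carries CG34224 joined to the fluorescent protein eGFP, and the antibody was raised against GFP, so every list reports the tagged protein. All 3 libraries are biological replicates of this genotype, each from its own biosample, and each mixes all tissues and stages of the embryo. No wild-type or untagged library was used here, and the read depth is unknown: the replicate lists held 2667, 2844 and 4146 peaks in replicates 1, 2 and 3.

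CG34224 is known by its annotation number, and the sources used here give it no function. In flies, promoters of widely expressed genes often carry short sequences close to the start site. The DNA replication-related element (DRE, TATCGATA) is bound by the factor Dref, and its inner letters resemble the sites of the boundary protein BEAF-32. Repeats of GAGAG are bound by GAGA factor, the product of Trl, which keeps promoters and other regulatory DNA open. Motif 7 is a longer consensus found in core promoters. Sites away from promoters can be enhancers, boundaries between chromatin domains or start sites missing from the annotation, and a peak list alone does not tell these apart.

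Some of the strongest members of both classes shared a pair of short sequences, CATCNCTA and CGTGACACG, lying within 100 bp of each other. CATCNCTA is a narrower form of the middle of Motif 7. The pair was noticed in the strongest members after their values had been seen, so its occurrence there is a description. It was present within 150 bp of the summit in the intergenic members of rank 1, 2, 3 and 7 by signal and in the exonic members of rank 1, 2 and 7. Capitals below mark CGTGACACG or its reverse complement in 30 bases of the plus strand of each of these 7 members (dm6, sequence of the RefSeq assembly Release 6).
CG5273, intergenic, chrX:758967-758996: tcgtgctaattCGTGACACGaacatcaaga
CG16989, exonic, chrX:796532-796561: tcttgctcattCGTGACACGaacatcaaga
CG15468, intergenic, chrX:4956108-4956137: cgtgcaaagctCGTGACACGaccggcgaaa
inc, intergenic, chrX:1517707-1517736: cgtgcctaattCGTGACACGtacaaaaaat
CG9166, exonic, chr3L:1352146-1352175: cttgttattctCGTGTCACGgccaaaataa
Sfp79B, intergenic, chr3L:22078294-22078323: attaccacgtgCGTGTCACGtggtcatccc
dos, exonic, chr3L:2590671-2590700: cctcaggagttCGTGACACGacactctgta
The first and second of these sites lie 37556 bp apart on the X chromosome, near different genes, and their peaks share an unbroken run of 43 identical bases. Their copies of the other sequence of the pair, in capitals as the reverse complement of CATCNCTA, also lie in matching surroundings.
CG5273, intergenic, chrX:758890-758919: aagcgctttctTAGTGATGcccgcgtgcct
CG16989, exonic, chrX:796457-796486: aagcgctttcaTAGTGATGcccgcgtgcct
The starts of both sequences were 32 bp apart at CG15468, inc and CG9166, 77 bp at CG5273, 75 bp at CG16989, 26 bp at dos and 13 bp at Sfp79B.

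The pair was rare in the conservative list. It was found near the summit of 14 peaks, 0.319% of all conservative peaks. The 4 intergenic and 3 exonic members counted among them are the sites in which it was noticed, so their number follows from that choice and is no measure of enrichment. The other 7 were promoter peaks, and 0 of 377 distal intronic peaks held it. Read from the genome instead, CGTGACACG had CATCNCTA within 100 bp at 32 positions, and 15 of them had a conservative summit within 150 bp. These 15 include the 7 member sites above. Near promoters, outside the members, 8 of 10 positions with the pair had a summit, beside 19 of 56 positions of CGTGACACG without it. In introns 0 of 9 positions with the pair had a summit, beside 4 of 136 without it. Of the distal intergenic positions with the pair, 4 of 9 had a summit.

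A second set of members carried the full DRE, searched on both strands within 50 bp of the summit (a window of 101 bp). It was found in 18 of 155 intergenic members (11.6%, 95% Wilson interval 7.47 to 17.6) and in 5 of 82 exonic members (6.10%, 2.63 to 13.5), where all conservative peaks gave 14.2%. Intervals here and below cover counting error only. The 30 bases around the DRE, in capitals, are shown for 4 intergenic and 4 exonic members, since these windows hold the same letters as many promoters while lying outside them.
ey, intergenic, chr4:696924-696953: tatgagtttccTATCGATAtggaagaaaac
SrpRbeta, intergenic, chr3L:8718789-8718818: catatctgtgcTATCGATAgtcaatgaact
CG3168, intergenic, chrX:6741260-6741289: ggctaTATCGATATCGATAagttatcgcaa
CG10651, intergenic, chr2L:20120549-20120578: ctgcaggaaacTATCGATAggagcagagtg
RpL13, exonic, chr2L:9968545-9968574: acccgtgttgcTATCGATAagtagctttgg
tna, exonic, chr3L:10876238-10876267: acgattaacaaTATCGATAggcagttggga
CG5151, exonic, chr3L:16139322-16139351: ctgcaattggtTATCGATAacttcagtttc
CG4928, exonic, chrX:16936871-16936900: actagcataacTATCGATAgacaaatacgc
At CG3168 a pair of DREs overlaps within 14 letters of the run shown. All 5 exonic members with a DRE had their summit in a 3′ UTR, 5 of 30 there, and 0 of the 52 exonic members elsewhere held one.

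**Figure D1:**
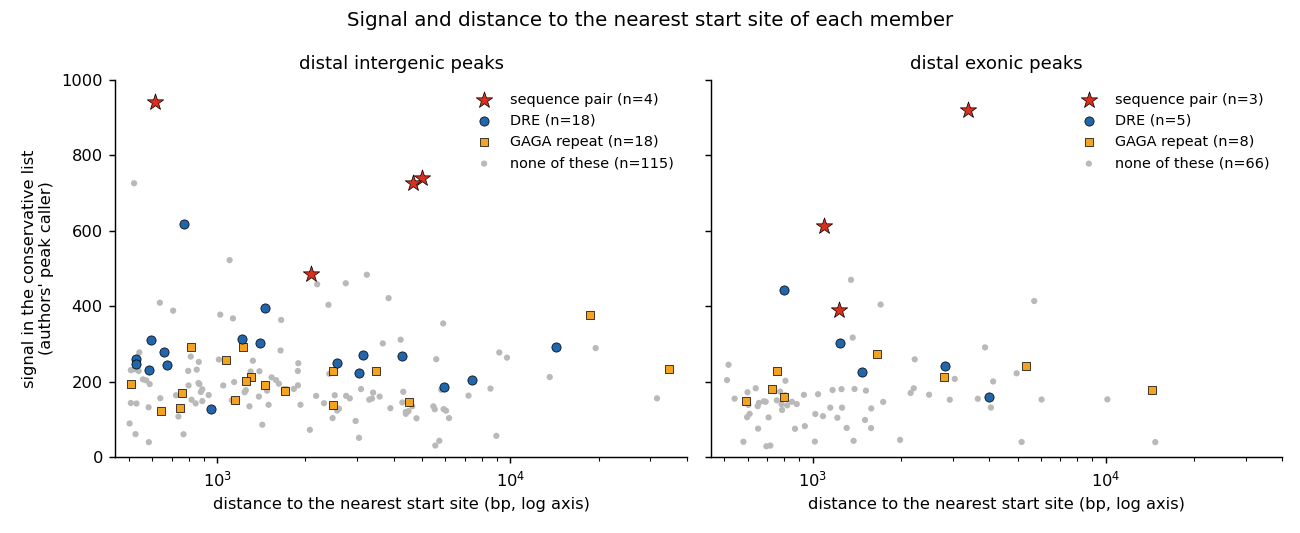
Signal in the conservative list (authors' peak caller, linear axis) against the distance from the summit to the nearest start site (bp, log axis) for each of the 155 distal intergenic and 82 distal exonic peaks. Stars mark members with the sequence pair, circles those with a DRE and squares those with a GAGA repeat; the stars reach signals of 941 in intergenic and 920 in exonic members.

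The strongest intergenic member lay at chrX:758784-759159 (dm6), 614 bp from the nearest start site and upstream of CG5273 (FBgn0040382), with a signal of 941. The scale of the deposited signal is not stated, so within each replicate it was turned into a percentile of that replicate's own list. This site stood at percentiles 93.4, 97.2 and 97.8 in replicates 1, 2 and 3. The site at CG15468 (chrX:4955947-4956356, signal 738) stood at 93.8, 93.2 and 92.4. The site at inc, which encodes an adaptor of a ubiquitin ligase needed for normal sleep (chrX:1517538-1517874, signal 727), stood at 89.5, 86.8 and 94.6. These sites at CG15468 and inc lay 4987 and 4664 bp from the nearest start site, between the 3′ ends of convergent genes.

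Rcd2 (chr3L:20540770-20541086) had a signal of 726 and percentiles of 93.9, 93.3 and 87.4, with its summit 521 bp from a start site, close to the 500 bp limit. The site upstream of ey, the eyeless gene that directs eye development, lay on chromosome 4 (chr4:696782-697066), 771 bp from a start site, with a signal of 618 and percentiles of 86.3, 79.95 and 91.8. It held the DRE shown above. SP1029, Sfp79B, a seminal fluid protein gene, and CG5445 followed with signals of 522, 486 and 483. Their percentiles ran from 67.0 to 85.0 over the 3 replicates.

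The last 2 of the 10 strongest intergenic members differed more between replicates. The site near CG13955 (chr2R:9420794-9421059, signal 461) stood at 36.7, 51.3 and 85.1 in replicates 1, 2 and 3, and its summit lay inside an annotated INE-1 transposable element. The site beside zfh1, a gene of a zinc finger and homeodomain transcription factor (chr3R:30789338-30789571, signal 458), stood at 55.3, 84.6 and 84.3. Of these 10 members, 2 had a promoter peak at their nearest coding gene, inc and CG5445.

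Further down the order of intergenic signals, some members near well-known genes are named after their values were seen. The site near GATAe, which directs endoderm development, had a signal of 421 and stood at percentiles 61.7, 55.03 and 85.01 in replicates 1, 2 and 3. That near del, a gene of the germline piRNA pathway (signal 409, 638 bp from a start site), stood at 63.9, 67.6 and 74.4. That near Mnt, the gene of a Myc antagonist (signal 404), stood at 68.8, 60.9 and 54.5. The sites near mRpS5, of the mitochondrial ribosome, SmD1, of the spliceosome, and Cat, the catalase gene, had signals of 368, 363 and 354. Each of these last 3 sites was highest in replicate 3, where percentiles were 75.98, 79.3 and 74.99, and stood below 50 in replicates 1 and 2.

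Among exonic members the strongest summit lay in the 3′ UTR of CG16989 (FBgn0025621, chrX:796343-796710), 3389 bp from any start site, with a signal of 920. It stood at percentiles 96.5, 95.5 and 97.6 in replicates 1, 2 and 3. The 3′ UTR of CG9166 followed (chr3L:1352067-1352338, signal 612, 1092 bp from a start site) with 74.7, 92.9 and 90.02. The coding exon of CG13285 (chr3L:5534289-5534578, signal 470) stood at 28.7, 67.4 and 87.5, lowest in replicate 1 and highest in replicate 3.

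Next came the 3′ UTR of exu, whose product is needed to place bicoid mRNA in the egg (chr2R:20667939-20668244, signal 442), with percentiles of 73.96, 74.2 and 83.1 and a DRE in its window. The nearest coding start site there belonged to Fem-1, 801 bp away, and carried a promoter peak. A 5′ UTR exon of drm, a zinc finger gene of the odd-skipped family (signal 414), lay 5698 bp from the nearest start site and stood at 62.5, 62.07 and 74.03. The 3′ UTR of lwr, the gene of the SUMO-conjugating enzyme (signal 404), stood at 67.4, 72.3 and 63.1. A 5′ UTR exon of dos, an adaptor in receptor tyrosine kinase signalling (signal 391), stood at 62.1, 72.8 and 74.5.

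The remaining 3 of the 10 strongest exonic members were lower. Tlk, a tousled-like kinase gene (3′ UTR, signal 317), stood at 46.9, 31.8 and 70.9. RpL13, which encodes a protein of the large ribosomal subunit (3′ UTR, signal 303), stood at 32.2, 58.2 and 56.3. A coding exon of toc (signal 291) stood at 14.9, 46.8 and 49.1. The site in toc stood below the middle of the list in all 3 replicates, and that in Tlk in replicates 1 and 2. Those in RpL13 and CG13285 did so in replicate 1 alone.

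**Figure D2:**
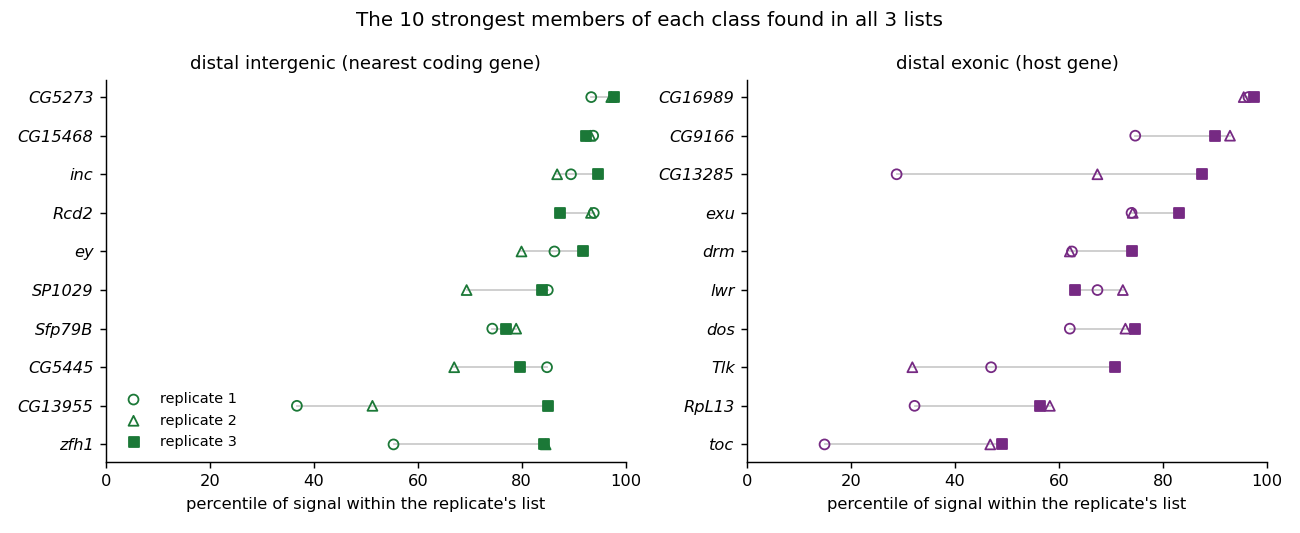
Percentile of signal within each replicate's own list for the 10 strongest intergenic members (left, by nearest coding gene) and exonic members (right, by host gene), with open circles, open triangles and filled squares for replicates 1, 2 and 3. The sites at CG5273 and CG16989 stay above 93 in all replicates, while CG13955 and CG13285 run from 36.7 to 85.1 and from 28.7 to 87.5.

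Most members were weaker than these. The signal of intergenic members had a median of 192, with a lowest of 30.7 and a highest of 941, and that of exonic members a median of 155, with a lowest of 28.8 and a highest of 920. Distal intronic peaks had a median of 164 and promoter peaks of 243 in the same list. The median percentile within the conservative list was 38.8 for intergenic and 23.9 for exonic members, against 27.5 for distal intronic and 54.3 for promoter peaks.

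The same order held for intergenic members in each replicate's own list, with classes assigned again from that list's summits. Intergenic peaks numbered 77, 74 and 167 in replicates 1, 2 and 3 and had median percentiles of 38.2, 36.5 and 34.6. Promoter peaks had 52.6, 52.4 and 54.1. The difference was −16.6 ± 2.60 percentile points (SD, n = 3), lower in 3 of 3 replicates. Against distal intronic peaks, with 27.2, 25.4 and 30.7, intergenic peaks were higher by 8.66 ± 4.16 points in 3 of 3 replicates, a difference that turned to −3.09 in the upper 50% of each replicate list. An exact sign-flip permutation test over the replicates, 2-sided, gave p = 0.25 for both, the smallest that 3 replicates allow.

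Exonic peaks were the weakest of the 4 classes in every replicate. They numbered 30, 31 and 78 and had median percentiles of 24.4, 24.02 and 21.01, which was 29.9 ± 2.75 points below promoter peaks (SD, n = 3, exact sign-flip p = 0.25, 2-sided). Intergenic peaks stood 13.3 ± 0.711 points above exonic peaks in the same replicates, again in 3 of 3 (exact sign-flip p = 0.25). The gap between exonic and distal intronic peaks, −4.63 ± 4.47 points, was close to its own spread. It was −2.08 without replicate 3, and it turned to 5.97 with a limit of 1000 bp from start sites and to 9.67 in the upper 50% of each replicate list. It was 1.31 when the lists were brought to equal length, an alternative chosen after seeing the data. These are 5 of 80 differences between classes computed in this way, and none of the 80 can pass 0.05 with 3 replicates.

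**Figure D3:**
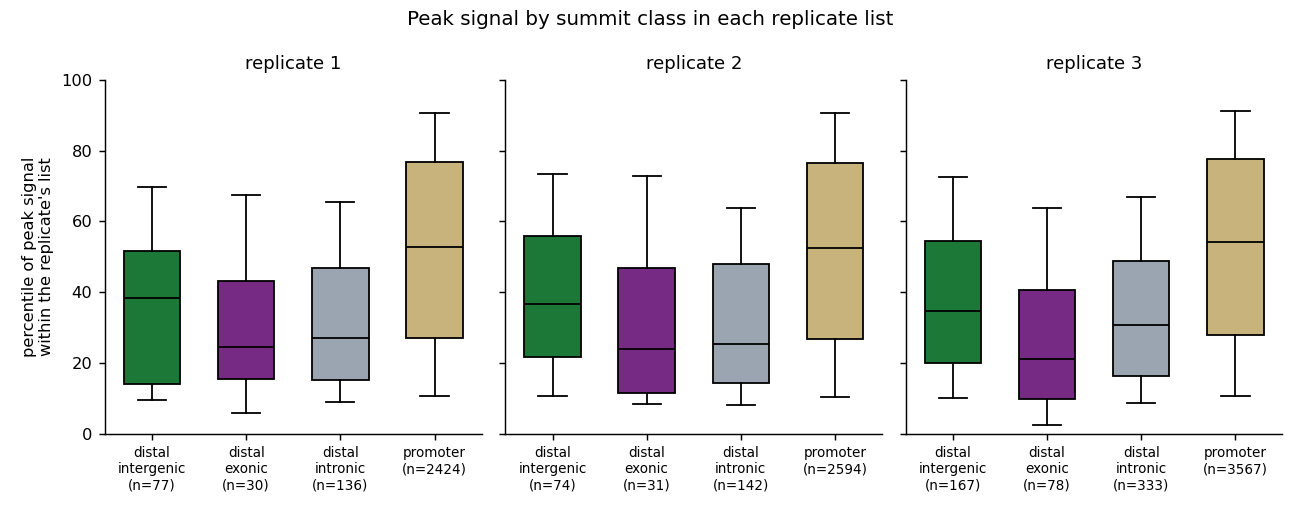
Percentile of peak signal within each replicate's list, by the class of the summit in that list (number of peaks in brackets). Boxes give the quartiles and the median, whiskers the 10th and 90th percentiles; the exonic median lies between 21.01 and 24.4 and the promoter median between 52.4 and 54.1.

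A conservative peak was counted as found in a replicate when it overlapped a peak of that replicate's list by at least 50% of the shorter. Of the 155 intergenic members 49 were found in all 3 lists (31.6%, interval 24.8 to 39.3) and of the 82 exonic members 12 (14.6%, 8.57 to 23.9). The share was 17.2% (13.8 to 21.4) for distal intronic peaks, 51.6% (50.01 to 53.2) for promoter peaks and 47.3% over all conservative peaks. Peaks found in no replicate list made up 34 of the intergenic members (21.9%, 16.1 to 29.1) and 37 of the exonic members (45.1%, 34.8 to 55.9), beside 13.8% of all conservative peaks. Replicate 3, whose list is the longest, was the sole list for 38 intergenic (24.5%) and 14 exonic members (17.1%), beside 24.1% of distal intronic peaks and 695 of all 4393 conservative peaks (15.8%). Replicate 1 was the sole list for 5 and 1, and replicate 2 for 8 and 5.

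Most members absent from the thresholded lists were present in longer lists. The authors also deposited ranked lists of 40130, 31426 and 57471 peaks for replicates 1, 2 and 3, which hold peaks below the threshold too. Of the 34 intergenic members in no thresholded list 24 were present in all 3 ranked lists, and of the 37 such exonic members 30 were, beside 492 of 607 such peaks (81.1%) in the whole conservative list. Lists of this length hold many weak peaks, so presence in them is a loose criterion. Members found in all 3 thresholded lists had a median signal of 293 (intergenic) and 398 (exonic), against 135 and 131 for those found in none. Over all conservative peaks these medians were 396 and 138. The conservative list derives from the same libraries, so this contrast is no separate result about the members.

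**Figure D4:**
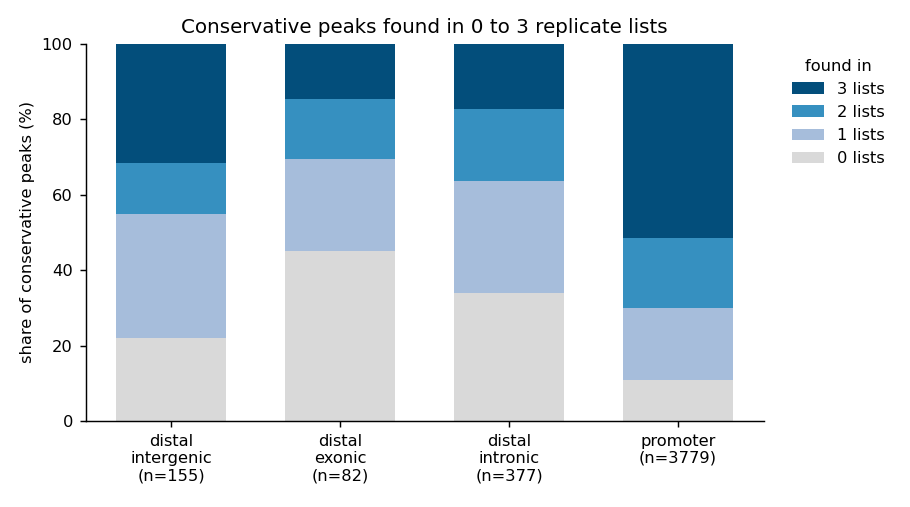
Share of conservative peaks (%) found in 3, 2, 1 or 0 of the replicate lists, for distal intergenic (155), distal exonic (82), distal intronic (377) and promoter peaks (3779). Exonic peaks have the tallest segment for 0 lists, 45.1%, and promoter peaks the tallest for 3 lists, 51.6%.

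Among the sequences listed for the search, the full DRE was more frequent at intergenic members than at distal intronic peaks. It was present in 11.6% of intergenic and 6.10% of exonic windows, against 2.12% (interval 1.08 to 4.13) of intronic and 15.7% (14.6 to 16.9) of promoter windows. In windows centred 500 bp to either side of the same summits it was found in 2 of 310 intergenic and 0 of 164 exonic flanks. The median distance of the DRE from the summit was 23 bp in intergenic and 14 bp in exonic members.

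In the replicate lists the DRE share of intergenic peaks was 18.2%, 12.2% and 10.8% in replicates 1, 2 and 3, from 14, 9 and 18 peaks. Promoter peaks had 21.1%, 19.9% and 15.2%, so intergenic peaks were lower by 5.01 ± 2.45 percentage points in 3 of 3 replicates (SD, n = 3, exact sign-flip p = 0.25). Distal intronic peaks had 3.68%, 4.93% and 2.40%, and intergenic peaks were higher by 10.04 ± 3.91 points in 3 of 3 (exact sign-flip p = 0.25). Exonic peaks had 10%, 12.9% and 5.13%, from 3, 4 and 4 peaks, which was 9.38 ± 2.16 points below promoter peaks in 3 of 3 (exact sign-flip p = 0.25). Between intergenic and exonic peaks the difference was 4.36 ± 4.60 points and changed sign between replicates.

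In the conservative list 16 of the 18 intergenic members with a DRE and all 5 exonic ones lay in the upper 50% of their class by signal. Over all conservative peaks 535 of the 625 with a DRE lay in the upper 50% of the list. Of the 18, 12 were found in all 3 replicate lists, against 37 of the 137 intergenic members without one. Their median signal was 263, against 180 without. Over all conservative peaks, with or without a DRE, 47.3% were found in all 3 lists. That share was not computed for all conservative peaks with a DRE, so the contrast is no separate result about the members. The inner 6 letters alone, ATCGAT, were present in 31 intergenic (20%) and 8 exonic members (9.76%), against 28.6% of all conservative windows; every full DRE holds these letters. Besides the 4 printed, intergenic members with a DRE lay near CG31523, CG4593 and Arpc3B, an actin-nucleating complex subunit gene, with signals of 312, 302 and 278. The intergenic DRE members near CG3168 and CG10651 stood at percentiles 53.04, 35.8 and 64.1, and 38.2, 50.3 and 67.2, in replicates 1, 2 and 3. The exonic DRE members in tna, a gene of the trithorax group, and CG5151 were found in replicates 2 and 3, at 24.02 and 63.6 for tna and 29.4 and 38.9 for CG5151. The exonic member in CG4928 was the weakest with a DRE in its class, with a signal of 158 and percentiles of 10.6 and 18.6 in replicates 1 and 3.

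GAGA repeats (GAGAGAG on either strand) marked other members. They were present in 18 intergenic windows (11.6%, interval 7.47 to 17.6) and 8 exonic windows (9.76%, 5.03 to 18.1), beside 16.7% (13.3 to 20.8) of distal intronic windows, 4.37% (3.76 to 5.07) of promoter windows and 5.78% of all conservative windows. No member held both a DRE and a GAGA repeat, and only 4 of all 4393 conservative peaks (0.0911%) did, so this absence is not particular to the members. The flanks of the members held the repeat in 2 of 310 intergenic and 5 of 164 exonic windows. The intergenic member of highest signal with a GAGA repeat lay 18685 bp from the nearest start site, near Su(z)2, a gene related to the Polycomb group, with a signal of 375. The repeat was found in 11 members of the upper 50% and 7 of the lower 50% of intergenic signals, and in 7 of the upper and 1 of the lower 50% of exonic signals. Distal intronic peaks, divided in the same way within their class, held it in 36 of the upper and 27 of the lower 50%. Promoter peaks held it in 45 of the upper and 120 of the lower 50% of their class. Over all conservative peaks, divided over the whole list, it was found in 78 of the upper and 176 of the lower 50%. Of the intergenic members with the repeat 5 of 18 were found in all 3 replicate lists, against 44 of 137 without it, and of the exonic ones 0 of 8, against 12 of 74. Over all conservative peaks, with or without the repeat, 47.3% were found in all 3 lists. The share among all conservative peaks with the repeat was not computed.

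In the replicate lists intergenic peaks held the GAGA repeat in 11.7%, 12.2% and 10.2% of windows in replicates 1, 2 and 3, against 3.55%, 3.51% and 4.40% of promoter peaks. The difference was 7.52 ± 1.53 percentage points, higher in 3 of 3 (SD, n = 3, exact sign-flip p = 0.25). Exonic peaks had 20%, 6.45% and 8.97%, from 6, 2 and 7 peaks, with a difference of 7.99 ± 7.37 points from promoter peaks (higher in 3 of 3, exact sign-flip p = 0.25). Replicate 1 set the size of that value, which was 3.76 points without it.

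Motif 7 was found in 8 intergenic members (5.16%, interval 2.64 to 9.85) and 5 exonic members (6.10%), beside 6.37% of all conservative windows. Distal intronic windows of the same list gave 3.45% (2.03 to 5.81), an interval that overlaps the intergenic one, and promoter windows gave 6.72%. All 8 intergenic members with Motif 7 lay in the upper 50% of their class by signal. Of these 8, 7 were found in all 3 replicate lists, against 42 of the 147 without it and 47.3% of all conservative peaks. Over all conservative peaks 215 of the 280 with Motif 7 lay in the upper 50% of the list. How many of these 280 were found in all 3 lists was not computed, so the contrast is no separate result about the members. In the replicate lists it was found in 13.0%, 10.8% and 7.19% of intergenic windows in replicates 1, 2 and 3, against 2.21%, 3.52% and 2.10% of distal intronic windows. The difference was 7.72 ± 2.87 percentage points, higher in 3 of 3 (SD, n = 3, exact sign-flip p = 0.25). Against promoter windows, with 10.2%, 8.71% and 7.26%, the mean difference over the 3 replicates was 1.61 points, higher in 2 of 3 (exact sign-flip p = 0.5). Exonic windows had 6.67%, 9.68% and 3.85%.

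The TATA box, TATAAA, which places the transcription machinery at some promoters, was found in 17 intergenic (11.0%) and 3 exonic windows (3.66%), against 10.8% of all conservative windows, and in 15.2% and 16.5% of the flanks of these members. In the replicate lists intergenic windows held it in 18.2%, 18.9% and 12.6% in replicates 1, 2 and 3, against 11.1%, 12.9% and 12.1% of promoter windows. The difference was 4.50 ± 3.54 percentage points, higher in 3 of 3 (SD, n = 3, exact sign-flip p = 0.25), but only 0.464 points in replicate 3. The conservative list did not show it, with 11.0% of intergenic and 11.4% of promoter windows. Against distal intronic windows of the replicate lists, with 5.15%, 7.75% and 6.61%, the difference was 10.06 ± 3.66 points, higher in 3 of 3 (exact sign-flip p = 0.25). Distal intronic windows of the conservative list held the TATA box in 6.37%. Exonic windows had 6.67%, 9.68% and 11.5%.

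E-boxes of the form CAGCTG were found in 10 intergenic (6.45%) and 4 exonic members (4.88%), against 10.9% overall. The core of the Su(Hw) insulator site, GCATACTT, was found in 4 intergenic and 1 exonic member, against 0.341% overall. The strongest of the 4 intergenic ones was the site near GATAe, found in all 3 lists. None of the 14 listed sequences was found in 64 intergenic (41.3%) and 43 exonic members (52.4%), against 52.3% of distal intronic, 38.8% of promoter and 40.3% of all conservative windows.

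Base composition differed between the classes. The mean GC content of the windows was 45.0% in intergenic and 49.2% in exonic members, against 46.7% in distal intronic and 42.4% in promoter windows. In the replicate lists the median GC content of exonic peaks was 47.5%, 43.6% and 48.02%, higher than that of promoter peaks by 4.29 ± 1.59 points (SD, n = 3, exact sign-flip p = 0.25). Intergenic peaks differed from promoter peaks by 0.660 ± 1.14 points (exact sign-flip p = 1). The part of GC content in the sequence shares was not tested.

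**Figure D5:**
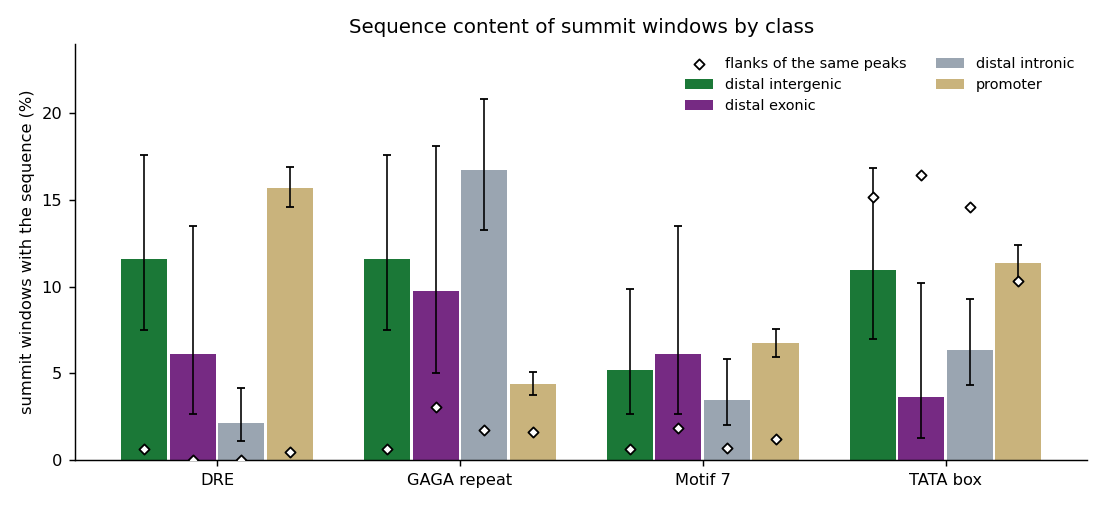
Share of summit windows of 101 bp (%) that hold the DRE, the GAGA repeat, Motif 7 or the TATA box in distal intergenic, distal exonic, distal intronic and promoter peaks of the conservative list. Bars carry 95% Wilson intervals and diamonds give the share in windows 500 bp to either side of the same summits; the DRE bar of intergenic members, 11.6%, stands beside 2.12% for intronic peaks.

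The parts of the transcript that held exonic summits differed in what they contained. The 30 members in 3′ UTRs had a median signal of 159, with the 5 DREs, 3 GAGA repeats and 7 sites found in all 3 lists. The 20 in coding sequence had a median signal of 147 and a median GC content of 60.4%, and none of them held a DRE, a GAGA repeat or Motif 7. Of these 20, 2 were found in all 3 lists, and 14 had another conservative summit within 1 kb, beside 1339 of all 4393 conservative peaks (30.5%). The 18 in 5′ UTRs had a median signal of 148, with 2 found in all 3 lists, at drm and dos. Among the members in 5′ UTR exons were transcription factor genes such as E2f1 (signal 200, found in 1 list), a regulator of S-phase entry, and Mef2 (signal 146, found in 1 list), a regulator of muscle development; both were picked after their values were seen. The 14 in exons of non-coding genes had a median signal of 168, 3 GAGA repeats, and 1 site found in all 3 lists, in the antisense RNA gene asRNA:CR45912.

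Distances to the nearest start site overlapped widely between the classes. The median was 1645 bp for intergenic members, from 503 to 34705 bp, and 1192.5 bp for exonic members, from 511 to 14741 bp, against 1560 bp for distal intronic peaks. A start site lay within 1 kb of 48 intergenic (31.0%) and 34 exonic members (41.5%), and more than 10 kb away from 6 intergenic and 3 exonic members. The 3 members just beyond the 500 bp limit lay at 503, 508 and 508 bp, near Roc1a, CG12896 and dmrt99B, with signals of 89.1, 231 and 143. The 3 peaks just within it that were otherwise intergenic or exonic lay at 499, 498 and 490 bp, near Cka, CG14314 and CG31145, with signals of 46.7, 32.02 and 168.

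Members lay on chromosome 4, the X chromosome and all 4 large autosome arms. The X chromosome held 29 of 155 intergenic (18.7%) and 14 of 82 exonic members (17.1%), against 12.5% of distal intronic and 17.1% of promoter peaks. Chromosome 4 held 3 intergenic members and 1 exonic member, beside 3 intronic and 15 promoter peaks. The Y chromosome held none of the peaks of any class.

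Intergenic members lay in all arrangements of neighbouring genes. Their flanking genes ran in tandem in 66 cases, converged in 48 and diverged in 41. The nearest gene edge was a 3′ end for 87 members (56.1%, interval 48.3 to 63.7) and a 5′ end for 68, at a median distance of 658 bp. The rule left out summits within 500 bp of a start site but not those near a 3′ end. The larger number of 3′ ends therefore follows at least in part from the rule and is no measure of a preference. The nearest protein-coding gene had a promoter peak of its own for 60 intergenic members (38.7%, 31.4 to 46.6) and 43 exonic members (52.4%, 41.8 to 62.9), where 29.7% of all 13968 protein-coding genes had one. Distal intronic peaks had such a gene in 66.0% of cases. Among exonic members the host gene had a promoter peak in 44 of 82 cases, with 13 of 20 in coding sequence, 12 of 18 in 5′ UTRs, 16 of 30 in 3′ UTRs and 3 of 14 in non-coding exons. For 18 of the 30 members in 3′ UTRs the nearest coding start site belonged to another gene than the host.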

How the data were processed

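Peak lists from ChIP-seq of 3 embryo libraries were used: the deposited series-level conservative list, 3 other thresholded series lists, and a thresholded and a ranked list per replicate. Coordinates are on dm6, per the labels. The deposited score is an IDR-scaled value (irreproducible discovery rate) of at most 1000, and no conservative peak scored below 830; the deposited signal comes from the authors' peak caller. The aligner, the peak caller and the scale of that signal were not given in the sources used here. Other deposited columns, such as the summit offset in bp, gave positions. The series ranked lists hold 8 signal columns of unnamed libraries, which were not used.

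Start sites, genes, exons and transposable elements came from Ensembl BDGP6.54, release 115, and sequence from the RefSeq assembly Release 6; 2 conservative peaks off the main arms were left out. Adding 23239 RefSeq start sites was an alternative. Named members are the 10 strongest of each class found in all 3 replicate lists, then up to 6 more with a DRE, and the 3 peaks on either side of the 500 bp limit. The pair of sequences, other named sites and some alternatives were chosen after seeing the data. Members and lists were chosen with earlier results of these data known. The replicate was the unit of each test (exact sign-flip permutation). Shares carry Wilson 95% intervals, which cover counting error only. Overlap and sequence steps were tested on simulated data, and the class step on positions near start sites and in exons of the gene models. Intergenic and intronic calls were not tested in this way. Python 3.11.15, NumPy 2.4.6 and SciPy 1.17.1 were used.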

Additional observations from a re-analysis of the deposited data

How the results depend on the processing

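Of 128 recomputed values, 102 were classed as the same, 22 as moved and 4 changed sign. The cause was not tested. For values with a spread or interval, moved means beyond it. Member counts have neither, and the intergenic counts given below for 250 and 1000 bp were classed as the same as 155. RefSeq start sites, another overlap rule, intervals counted once and leaving out a replicate moved no value. RefSeq start sites left 155 intergenic and 82 exonic members, and intervals counted once left 154 and 82. Both alternatives hardly changed the members, so they are weak checks. With start sites within 250 bp there were 224 intergenic and 144 exonic members. The percentile differences from promoter peaks were then −19.6 (intergenic) and −32.9 (exonic), with −12.3 points for the exonic DRE share. With 1000 bp there were 107 intergenic and 48 exonic members. The exonic percentile difference was then −20.98 and the DRE differences were −8.14 (intergenic) and −6.08 (exonic). The exonic minus intronic percentile turned to 5.97. In the upper 50% of the conservative list 60 intergenic and 16 exonic members remained by count, 68.3% and 68.8% of them in all 3 lists. The intergenic share in all 3 lists was 23.7% in the series list of 4958 peaks and 43.4% in that of 3730. In the upper 50% of each replicate list the differences from promoter peaks were −24.7 (intergenic percentile), −12.0 (exonic percentile), −8.62 (intergenic DRE) and 5.39 (intergenic GAGA), and those from intronic peaks turned to −3.09 (intergenic) and 9.67 (exonic). Windows of 25 bp to either side gave −4.71 (exonic DRE) and 3.43 (intergenic GAGA), and 100 bp gave −14.8 (exonic DRE). With lists of equal length, added after seeing the data, the exonic percentile differences were −25.7 from promoter and 1.31 from intronic peaks.

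List length stands in for depth, which is unknown, so members found in replicate 3 alone and members absent elsewhere cannot be told apart by depth. Exonic values rest on 30, 31 and 78 peaks. All embryonic tissues are pooled. Whether a distal summit marks an unannotated start site was not tested.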

Other observations

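A small set of members lay in transposable elements. The summits of 6 intergenic members (3.87%) fell in annotated INE-1 elements, beside 0.341% of all conservative peaks in any element. Elements held 0 exonic members, 4 distal intronic peaks (1.06%) and 5 promoter peaks (0.132%). The signals of the 6 intergenic members were 461, 277, 250, 190, 127 and 120. Of these 6, 1 was found in all 3 replicate lists, the site near CG13955. Windows of the sites with signals of 461 and 250 shared a run of at least 20 identical bases. The site with a signal of 250 also shared such a run with an intergenic member outside any annotated element, of signal 225. Reads from repeated copies are hard to place, and how the authors placed them is not given in the sources used here.

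Some weak members overlapped a stronger listed peak. This was so for 12 intergenic members (7.74%) with a median signal of 66.4 and 11 exonic members (13.4%) with 45.5, against 11.5% of all conservative peaks. The exonic member in the 3′ UTR of wts, the Hippo pathway kinase gene, had a signal of 45.5 and was found in all 3 replicate lists. It overlapped the intergenic member beside zfh1, whose summit lay 205 bp away with a signal of 458, so its presence in the lists may be that of its neighbour. Without such members, an alternative chosen after seeing the data, 31.5% of 143 intergenic and 15.5% of 71 exonic members were found in all 3 lists.

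The members farthest from any start site lay 34705 and 31600 bp from it, both nearest to CG43245, with signals of 233 and 156. Each was found in 1 replicate list, and the farther one held a GAGA repeat.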
